A study of Oryctolagus cuniculus with 3 samples.

Results

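Collagen genes and the enzymes that modify, crosslink and trim their chains were followed through the differentiation of the rabbit corneal epithelial line RCE1(5T5). The members are the genes whose name in the deposited tables is COL, digits, A, digits, together with a list of 11 named enzymes and helpers. They came to 52 of 20536 gene names: 42 collagen genes and 10 of the 11, since PLOD3 is not listed under that symbol. RNA-seq was done at 3 stages: day 4, when cells were non-differentiated, day 6, when they were committed, and day 10, when they had differentiated terminally. Each stage has 1 library, so stage, day and library cannot be told apart and no difference has a replicate check. In all groups the cells grew on 3T3 cells, a mouse fibroblast line, which mitomycin C had stopped from dividing. The medium held EGF, hydrocortisone, cholera toxin, adenine, triiodothyronine, transferrin, insulin and fetal calf serum. EDTA was used to take the feeder cells off before RNA extraction, and reads were compared with a rabbit genome.

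Collagens are trimers of chains built from a glycine repeat. Fibrillar types I, III and V make the stroma of the cornea, type IV forms the network of basement membranes, and types XVII and VII anchor the epithelium, the first as a hemidesmosome protein and the second as the anchoring fibril. Inside the cell, prolyl and lysyl hydroxylases modify the chains. Outside it, BMP1 removes the C-terminal propeptide, PCOLCE speeds that step, and lysyl oxidases start the crosslinks.

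Levels are fragments scaled to library size with TMM factors, a correction for library composition, in counts per 1e6 (CPM). The libraries held 10171693, 12582706 and 10899578 fragments on days 4, 6 and 10. A difference is that of log2(CPM + 1), and a gene is said to rise or fall where it reached 2-fold. A fold is the ratio of CPM, with its exact 95% Clopper-Pearson interval in brackets. These intervals cover counting error only. Of the corneal markers, KRT12 had 0 fragments at the first stage and then 19.3 and 120.7 CPM, while the regulator PAX6 was at 42.2, 127.1 and 358 CPM.

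At least 1 CPM in at least 1 library was reached by 36 members, 26 collagens and all 10 of the others. Of these, 34 were at or above 1 CPM in all 3 libraries. The exceptions were COL13A1, which reached it on day 4 only, and COL11A2, which did on days 4 and 10. These had to differ to be included. No fragment was counted in any library for 10 collagen genes: COL4A3, COL6A5, COL9A1, COL10A1, COL19A1, COL21A1, COL22A1, COL24A1, COL25A1 and COL26A1. Zero counts allow up to 0.275, 0.249 and 0.283 CPM on days 4, 6 and 10. A further 6, COL4A4, COL6A6, COL8A2, COL9A2, COL9A3 and COL14A1, had at most 10 fragments in any library.

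**Figure D1:**
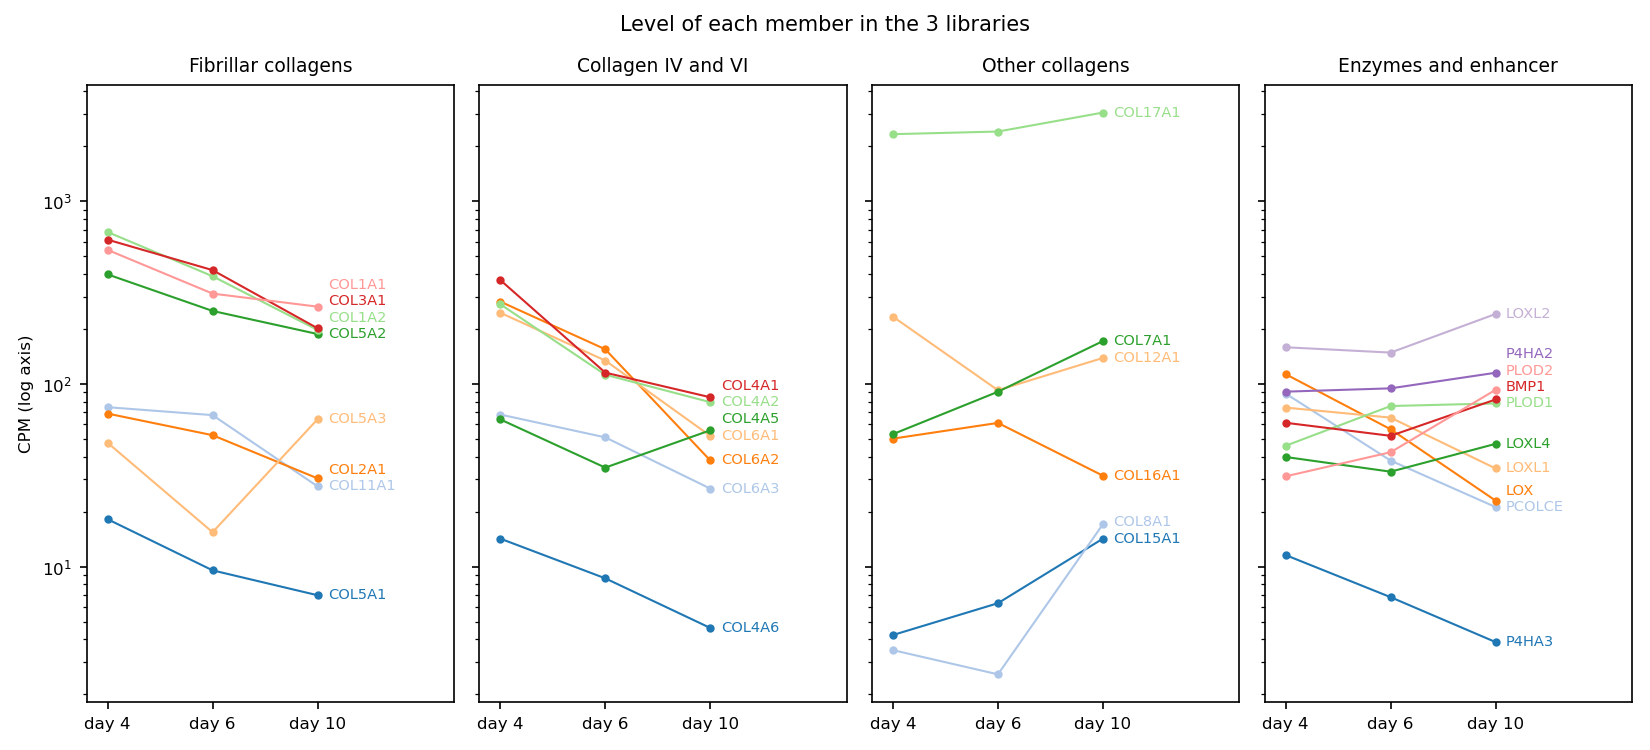
CPM (log axis) of the 31 members that reached 10 CPM, in the day 4, day 6 and day 10 libraries, which are drawn at equal distances. Each line is a gene and each point is 1 library. COL17A1 lies above the others at every stage, and most fibrillar, type IV and type VI genes decline from left to right.

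COL17A1, the transmembrane collagen of hemidesmosomes, was the most abundant collagen gene per length in every library. Its levels in stage order were 2332, 2411 and 3062 CPM, a ratio of 1.31 [1.29 to 1.33] over the whole interval. It neither rose nor fell by 2-fold. On the authors' TPM, which is scaled for length, it stood at 471.6, 376.3 and 470.9, so the direction of its day 10 minus day 4 difference depends on the scaling. The value sums 13 coding sequences filed under this name.

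COL17A1 took 36.1% [35.8 to 36.5] of all collagen gene fragments on day 4, 50.2% [49.8 to 50.6] on day 6 and 64.2% [63.8 to 64.6] on day 10. The summed level of the other collagens went from 4127 to 2392 and then 1709 CPM. Fibrillar genes held 38% [37.6 to 38.4] of collagen fragments on day 4 and 20.7% [20.4 to 21.1] on day 10. Type IV genes went from 11.2% to 4.72%, and type VI genes from 9.23% to 2.45%. The collagen fragments of the day 4 library were thus spread over COL17A1 and fibrillar genes in like amounts, and those of the day 10 library were mostly COL17A1. By summed TPM the COL17A1 share was 36.6%, 50.8% and 66.2%.

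**Figure D2:**
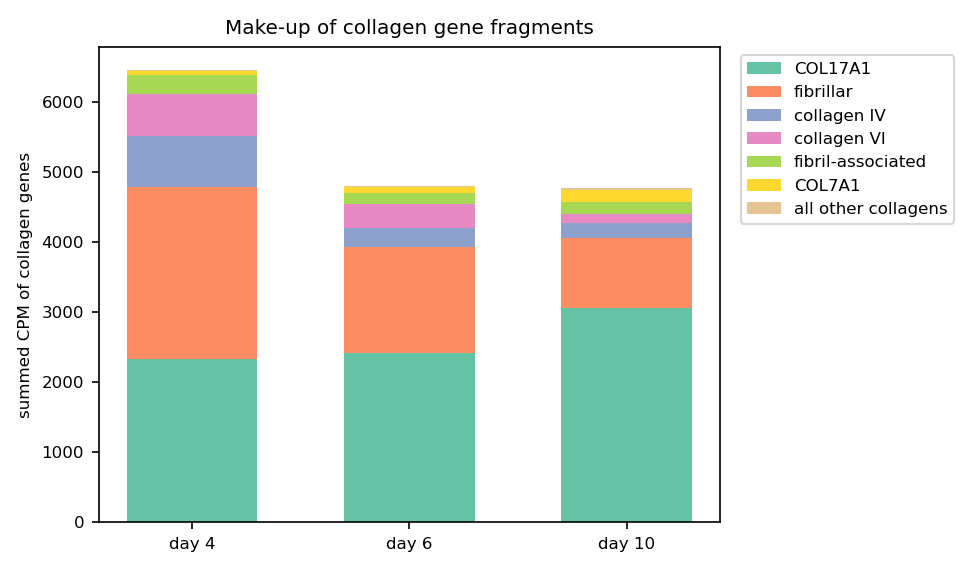
Summed CPM of the collagen genes by class in the 3 libraries, with COL17A1 and COL7A1 drawn as classes of their own. The COL17A1 segment is 2332, 2411 and 3062 CPM high while the rest of the bar shrinks from 4127 to 1709 CPM.

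The first interval, day 4 to day 6, is the step to commitment. Of 36 measured members 8 fell and 0 rose; 6.73% of all 12818 measured genes fell and 8.06% rose. The median difference was -0.61 over the members and 0.00 over all genes. In bulk RNA, fewer cells of a type and less RNA per cell cannot be told apart. The genes that fell were COL4A1, COL4A2, COL5A3, COL12A1, COL11A2, COL13A1, COL23A1 and PCOLCE. COL11A2 and COL13A1 were under 1 CPM on day 6 and were measured only through other libraries, so their falls are no separate support. The number that fell was 13 without TMM factors or with TPM (COL1A1, COL1A2, COL6A1 and COL6A2 among them with TPM). It was 5 with a pseudocount of 5 or a minimum of 5 CPM. The members measured were 34 with TPM and 32 with the minimum of 5 CPM. Of all genes 9.49% fell without TMM factors, 3.52% with a pseudocount of 5 and 6.95% with a minimum of 5 CPM. TPM also put the shares of all genes at 4.53% rising and 13.2% falling.

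From day 6 to day 10, 4 of the 36 rose and 5 fell, where 8.25% and 7.1% of all genes did. The median was -0.22, against -0.01 over all genes. COL8A1, COL5A3, COL15A1 and PLOD2 rose. The COL15A1 difference of 1.06 came to 0.65 with TPM and 0.77 with a pseudocount of 5 and then did not pass. Its TPM values, 1.1 on day 6 and 2.3 on day 10, are low, so the 1 added before the log shrinks the TPM difference. COL6A1, COL6A2, COL3A1, COL11A1 and LOX fell.

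Across the whole interval, day 4 to day 10, 19 members fell and 4 rose. COL13A1, among those that fell here and in the count of collagens, was measured only through day 4, so its fall is no separate support. Over all measured genes 15.8% fell and 17.1% rose (23.9% and 11.2% with TPM). The median difference was -1.03 over members and 0.01 over all genes. Of the 26 collagens 15 fell and 3 rose, with a median of -1.06. Of the 10 enzymes and helpers 4 fell and 1 rose, with a median of 0.29. The 3 comparisons share libraries, so they are not separate results.

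**Figure D3:**
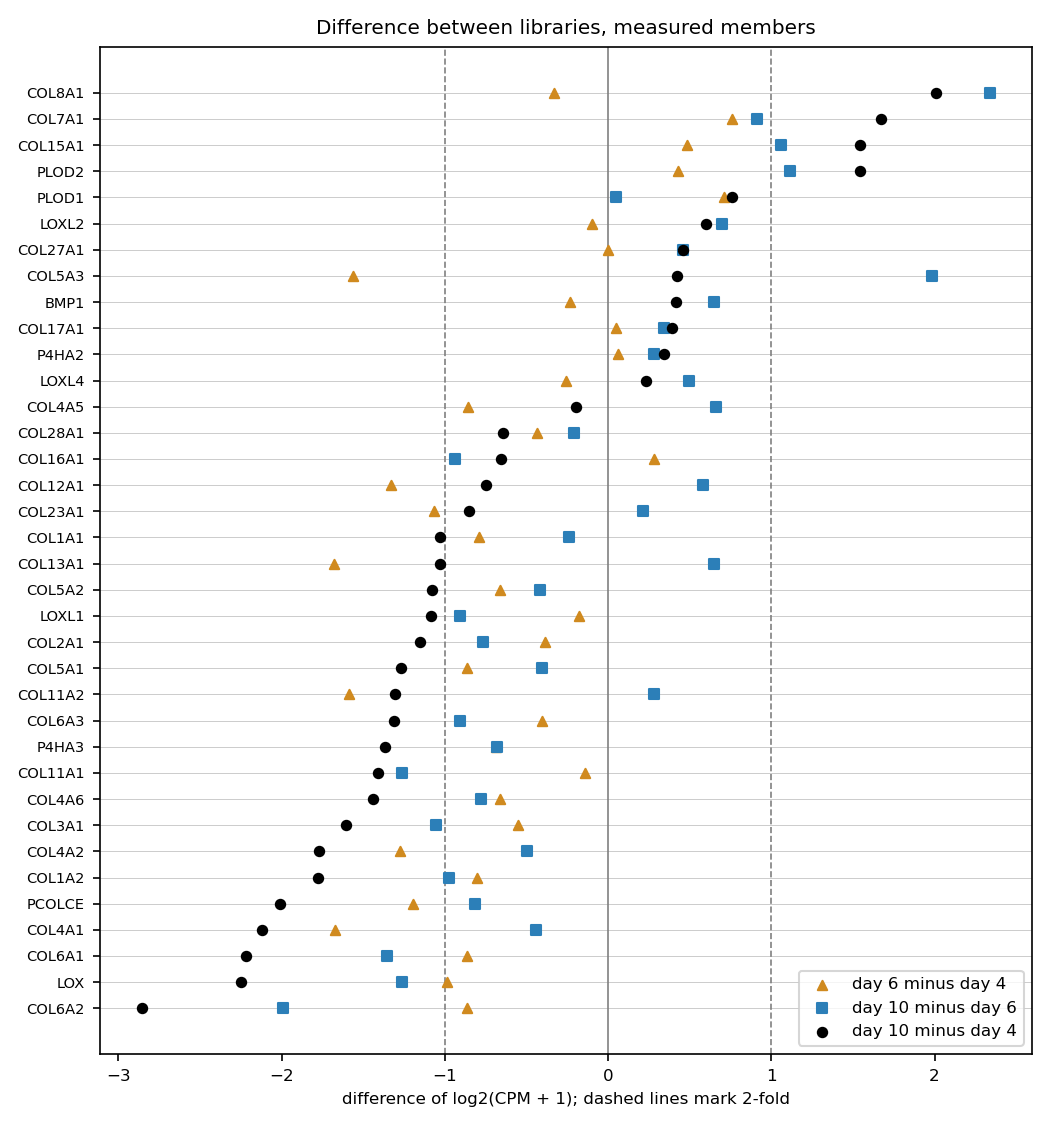
Difference of log2(CPM + 1) for each of the 36 measured members, ordered by the day 10 minus day 4 value (black circles). Triangles show day 6 minus day 4 and squares day 10 minus day 6; 19 circles lie at or beyond the lower 2-fold line and 4 beyond the upper.

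Among the fibrillar collagens 8 of 10 fell between day 4 and day 10 and 0 rose. Over all measured genes 15.8% fell and 17.1% rose. COL1A1 and COL1A2 code for the chains of type I, the main stromal collagen. COL1A1 was at 542, 312.5 and 265 CPM on days 4, 6 and 10. COL1A2 was at 679, 389 and 198 CPM. Both were highest on day 4 and lowest on day 10. COL1A1 fell 2.04-fold [1.95 to 2.14], close to the threshold, and COL1A2 fell 3.44-fold [3.27 to 3.61]. Per length, COL1A1 stood at 0.867 [0.838 to 0.898] of COL1A2 on day 4, at 0.859 on day 6 and at 1.46 [1.38 to 1.55] on day 10, by TPM. The type I trimer holds more COL1A1 than COL1A2 chains.

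COL3A1, the chain of type III collagen, had 617, 420 and 202 CPM and fell 3.06-fold [2.91 to 3.21]. Its neighbour in the mOryCun1.1 assembly, COL5A2, a type V chain, had 398, 251 and 188 CPM and fell 2.12-fold [2.01 to 2.24]. These adjacent genes thus shared the falling order of the libraries, but so did other collagens: 14 of the 26 measured ones had it. COL5A1, the partner chain of COL5A2 in type V, was far lower, at 18.2, 9.54 and 6.97 CPM, and fell 2.61-fold [1.99 to 3.45], a call lost with a pseudocount of 5 (-0.95). By TPM it was at 0.1 of COL5A2 on day 4. The coding length implied by the COL5A1 values was 1934 bases, against 4511 for COL5A2. Whether the COL5A1 entry covers the whole gene was not tested, so its CPM may not be comparable with that of COL5A2.

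COL5A3, the remaining type V chain, did not follow them. It went from 47.6 to 15.4 and then 64 CPM. It fell 3.09-fold [2.61 to 3.67] and then rose 4.15-fold [3.53 to 4.91], so day 6 was its low point. The cartilage-type chains COL2A1 and COL11A1 were counted as well. COL2A1 had 68.8, 52.4 and 30.4 CPM and fell 2.26-fold [1.98 to 2.59]. COL11A1 had 74.6, 67.5 and 27.5 CPM and fell 2.71-fold [2.37 to 3.11], nearly all of it after day 6. Collagen chains have similar repeats, and whether related genes shared fragments was not tested.

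Of the 4 measured type IV chains 2 fell by day 6, and 3 had fallen by day 10. Of all measured genes 6.73% fell by day 6 and 15.8% by day 10. COL4A1 was at 371, 115 and 84.6 CPM, a fall of 3.21-fold [3.02 to 3.42] by day 6 and of 4.38-fold [4.08 to 4.72] by day 10. COL4A2, which lies beside it in the genome, was at 273, 112 and 79.5 CPM and fell 2.43-fold [2.28 to 2.59] by day 6. These are the chains found in nearly all basement membranes, and most of their fall lay in the first interval. Their ratio by TPM was 1.41 [1.34 to 1.48] on day 4, 1.05 on day 6 and 1.07 on day 10. COL4A5 and COL4A6, chains of a second type IV network found under some epithelia, differed from each other. COL4A5 was at 64, 34.8 and 55.8 CPM and neither rose nor fell, although without TMM factors and with TPM its difference at day 6 reached -1.02 and -1.01. COL4A6 was at 14.2, 8.63 and 4.62 CPM and fell 3.08-fold [2.22 to 4.34] from day 4 to day 10, with 49 fragments on day 10. With TPM or a pseudocount of 5 its difference of -1.44 came to -0.95 or just short of the threshold and the call was lost. Its TPM values were low, at 2.1 on day 4 and 0.6 on day 10, so the 1 added before the log shrinks the TPM difference.

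All 3 measured type VI chains, which form beaded filaments around cells, fell from day 4 to day 10, as did 15.8% of all measured genes. COL6A2 went from 282 to 155 and then 38.1 CPM and fell 7.41-fold [6.67 to 8.23], more than any other member. COL6A1, its neighbour in the genome, went from 245 to 134 and then 52 CPM and fell 4.72-fold [4.31 to 5.18]. On the log2 scale most of the fall of both came after day 6, unlike that of the type IV pair. The differences before and after day 6 were -0.86 and -1.35 for COL6A1, and -0.86 and -1.99 for COL6A2. In CPM the larger part of both drops came before day 6. COL6A3 was at 68, 51 and 26.7 CPM and fell 2.54-fold [2.21 to 2.93]. The TPM ratio of COL6A1 to COL6A2 was 0.888 [0.843 to 0.936] on day 4 and 1.38 [1.21 to 1.57] on day 10.

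Against that direction, 3 of the 26 measured collagen genes (11.5%) rose from day 4 to day 10. Over all measured genes 17.1% rose. COL7A1, the chain of anchoring fibrils, was at 53.1, 90.6 and 172 CPM in stage order. It rose 3.23-fold [2.94 to 3.55] in steps of 1.71-fold and 1.89-fold, neither of which reached 2-fold by itself. COL8A1, a short-chain network collagen, was at 3.49, 2.57 and 17 CPM, and rose 6.63-fold [4.51 to 10] after day 6, from 30.9 to 180.9 fragments. COL15A1, a basement membrane collagen of the multiplexin group, had 46, 76 and 151 fragments and rose 3.37-fold [2.41 to 4.79]. With TPM the COL15A1 difference of log2(TPM + 1) was 0.80 and it did not pass. Its TPM values were low, at 0.9 on day 4 and 2.3 on day 10, so the 1 added before the log shrinks that difference. The rises of COL7A1 and COL8A1 kept their direction and passed in every alternative run at the 2-fold threshold.

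Fibril-associated collagens bind the surface of fibrils. COL12A1 was at 233, 92.4 and 139 CPM and fell 2.53-fold [2.35 to 2.71] in the first interval. Its day 10 minus day 4 difference was -0.75, and -1.02 with TPM. COL16A1 was at 50.2, 61.2 and 31.5 CPM and did not pass in any interval. By CPM it was the only measured member with its highest level on day 6. Its TPM values were 8.2, 7.8 and 4, highest on day 4, so that peak depends on the scaling. The 5 measured members under 10 CPM, COL11A2, COL13A1, COL23A1, COL27A1 and COL28A1, had between 0 and 79 fragments. COL13A1 had 24, 0 and 6 fragments. It passed the minimum of 1 CPM only through day 4, so its inclusion favoured a lower level later and its fold is no support for a fall. Counting day 6 at the limit of 3 fragments, it was 8.85-fold lower on day 6 than on day 4. The exact interval for that fold starts at 6.66.

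The enzymes differed in direction. PLOD1 and PLOD2 hydroxylate lysines, PLOD2 chiefly in the ends of the chains where crosslinks form. PLOD2 was at 31.2, 42.3 and 92.9 CPM and rose 2.98-fold [2.63 to 3.38]. PLOD1 was at 45.9, 75.7 and 78.3 CPM, a ratio of 1.71 [1.52 to 1.91] that did not pass. P4HA2 and P4HA3 are catalytic subunits of prolyl 4-hydroxylase, which stabilises the triple helix. P4HA2 was at 90.8, 94.6 and 115 CPM (54.5, 44.6 and 52.4 TPM) and neither rose nor fell. P4HA3 was lower, at 11.6, 6.8 and 3.86 CPM, and fell 2.99-fold [2.09 to 4.37], a call lost with a pseudocount of 5 (-0.90).

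Among the lysyl oxidases 2 of 4 fell from day 4 to day 10 and 0 rose, where 15.8% and 17.1% of all measured genes did. With only 4 genes these counts are no trait of the family. LOX, the founding member, was at 113, 56.5 and 23 CPM, and fell 4.92-fold [4.29 to 5.67]. Its difference at day 6 was -0.99, just short of the threshold, and reached it in 5 of the alternatives. LOXL1 was at 74.2, 65.4 and 34.5 CPM and fell 2.15-fold [1.9 to 2.44]. LOXL2 was highest on day 10, at 159, 149 and 242 CPM, a ratio of 1.52 [1.43 to 1.62] between days 4 and 10. LOXL4 was at 39.8, 33.1 and 47 CPM. Neither LOXL2 nor LOXL4 passed, and for LOXL4 TPM gave 14.9 on day 4 and 13.3 on day 10, the other direction. Per length, LOX (74.5 TPM) and LOXL2 (69.5 TPM) were close on day 4, while LOXL2 was at 80 and LOX at 11.3 TPM on day 10.

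In the trimming step, the helper and the protease parted. PCOLCE was at 88.6, 38.1 and 21.2 CPM and fell 4.18-fold [3.61 to 4.85]. BMP1, the protease it helps, was at 61.3, 52 and 82.2 CPM and neither rose nor fell, with a ratio of 1.34 [1.21 to 1.49].

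Among 27 other measured genes of collagen making, the day 10 level was lower than on day 4 by 2-fold or more for 9 and higher for 0. The median difference was -0.58. Over all measured genes 15.8% fell and 17.1% rose. By day 6, 4 of the 27 had fallen, and 3 fell between day 6 and day 10, against 6.73% and 7.1% of all measured genes. SPARC, a collagen-binding matrix protein, went from 125.9 to 56.9 and then 32.7 CPM. SERPINF1, a secreted collagen-binding serpin, went from 67.1 to 31.5 and then 16.9 CPM. P3H3, a prolyl 3-hydroxylase family member, went from 11.7 to 1.51 CPM between days 4 and 10. FKBP10, a chaperone of procollagen, went from 24.4 to 6.4 CPM. P4HA1, the remaining catalytic prolyl 4-hydroxylase subunit, was at 55.6, 55.7 and 100.7 CPM and did not pass.

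Of 7 measured collagen receptors 2 fell and 1 rose from day 4 to day 10, where 15.8% and 17.1% of all measured genes did. With so few genes these counts lie near those shares. MRC2, which takes up collagen for breakdown, fell from 57.2 to 14.4 CPM. DDR2, a receptor for fibrillar collagen, fell from 25.2 to 8.29 CPM, while DDR1, the form typical of epithelium, was at 130, 153 and 149 CPM. ITGA11, a fibroblast integrin chain, rose from 12 to 44 fragments. ITGB1, the shared integrin beta chain, was at 436, 378 and 470 CPM.

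The source of the collagen RNA has to be read with the feeder layer in mind. Of 28 fibroblast markers found, other than collagens, 24 were measured. Between day 4 and day 10, 19 of the 24 markers fell and 1 rose, where 15.8% and 17.1% of all measured genes did. The median over these markers was -1.98. Their summed level went from 6996 to 4443 and then 2711 CPM. ACTA2 and VIM made up much of this; without them the sum was 3107, 1596 and 884 CPM. ACTA2 is nearly identical to other actin genes and its count is uncertain. THBS2 fell from 152 to 5.27 CPM and CDH11 from 159 to 18.2 CPM, whereas THY1 rose from 19.6 to 77 CPM. LUM and TCF21 had 0 fragments in all libraries, as did KERA, a marker of keratocytes. SPARC and DDR2 are in this list too.

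Markers of other cell types differed in level. The endothelial genes PECAM1 and ESAM and the immune genes TYROBP, FCER1G and CD3E were at 0 fragments in all 3 libraries, and the 8 endothelial markers summed to 9.36, 11.4 and 9.04 CPM. The 7 immune markers summed to 125.5, 149.1 and 131.7 CPM, with opposite directions inside the sum. LAPTM5, a lysosomal membrane protein of blood cells, was at 118, 122 and 61.5 CPM and did not pass, while CD68, a lysosomal protein of macrophages, rose from 5.6 to 25 and then 68 CPM. PMEL, a melanosome protein, rose from 1.47 to 7.8 and then 28.5 CPM, but the melanocyte genes MLANA, TYR and DCT had 0 fragments in all 3 libraries. The keratocyte markers summed to 29, 10.7 and 4.9 CPM. The 13 epithelial markers found summed to 19843, 28066 and 20182 CPM. Of these 5 rose and 0 fell from day 4 to day 10, where 17.1% and 15.8% of all measured genes did. Whether fragments of collagen genes came from remaining mouse feeder cells or from the rabbit cells was not tested. 

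**Figure D4:**
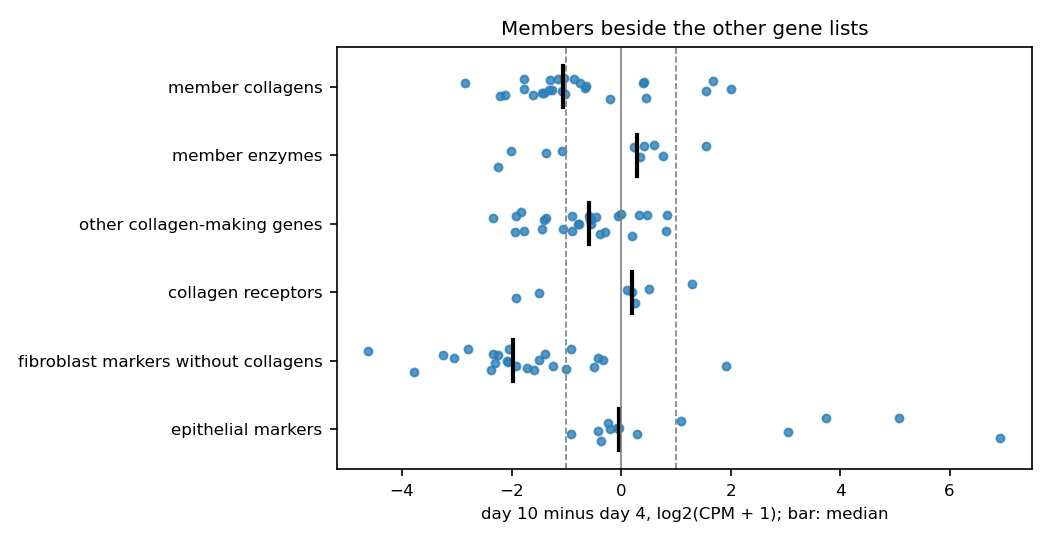
Day 10 minus day 4 difference of log2(CPM + 1) for each measured gene of 6 lists; black bars are medians and dashed lines mark 2-fold. The collagens (median -1.06) and the fibroblast markers (median -1.98) lie to the left, the enzymes (0.29) and the epithelial markers (-0.04) around the middle.

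The deposited tables hold a further value that bears on how fragments of these genes were counted. They give both reads and fragments, and the ratio of reads to fragments lay between 1 and 2 for every gene examined. In paired-end data it would be 2 where both mates of every fragment were counted; the labels do not say that the libraries were paired-end. Over the 7308 genes with more than 100 fragments in each library, the median was 1.45 on day 4, 1.49 on day 6, and 1.46 in the last library. The 17 collagen genes among them had medians of 1.19, 1.22 and 1.26, and the 9 enzymes and helpers 1.33, 1.40 and 1.42. A ratio under 1.25, a line drawn after the values were seen, was found for 12 of these 26 members on day 4, and for 4.84% of all 7308 genes. Over the 1089 of these genes with an implied coding length over 3000 bases the day 4 median was 1.48. Whether length plays a part in the ratio of the collagens was not tested.

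Of the members with enough fragments, those with the lowest ratios were all collagens. COL2A1 had 1.05, COL6A1 1.09, COL3A1 1.13, COL1A1, COL6A2 and COL6A3 1.16, and COL16A1, COL1A2 and COL5A2 1.18, 1.19 and 1.19 reads per fragment on day 4. Among collagens of the epithelial anchor, COL17A1 had 1.34 and COL7A1 1.31 on that day. P4HA2 had 1.42, close to the median of all genes, LOXL2 1.53, above their upper quartile of 1.51, and LOX 1.20. On day 4, all 12 epithelial markers with enough fragments lay between 1.40 and 1.71.

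The 1.25 line was drawn after the values were seen. On day 4, 10 of the 17 collagens and 2 of the 9 enzymes and helpers lay under it. Direction of change and kind of gene therefore cannot be told apart in what follows. Of the 14 such members that fell from day 4 to day 10, 10 had under 1.25 reads per fragment on day 4, among them the type I, III and VI genes. Of the 10 that neither rose nor fell, 2 did, COL4A5 and COL16A1. The 2 that rose, COL7A1 and PLOD2, did not. The rest of those that fell were COL11A1 at 1.43, COL4A2 at 1.29, LOXL1 at 1.27 and COL4A1 at 1.26, with LOXL1 and COL4A1 close to the line. The share under the line among all genes that fell was not examined. The 12 non-collagen fibroblast markers with enough fragments were spread widely, from 1.09 for ACTA2 to 1.56 for TNC. What sets this ratio for a gene was not tested.

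For a few members the ratio itself differed between libraries. PCOLCE had 1.21, 1.30 and 1.42 reads per fragment on days 4, 6 and 10, as its level went from 88.6 to 21.2 CPM. COL4A5 had 1.24, 1.33 and 1.38, and COL5A2 1.19, 1.22 and 1.26. COL1A1, COL1A2 and COL3A1 stayed within 1.13 to 1.20 in all 3 libraries.

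**Figure D5:**
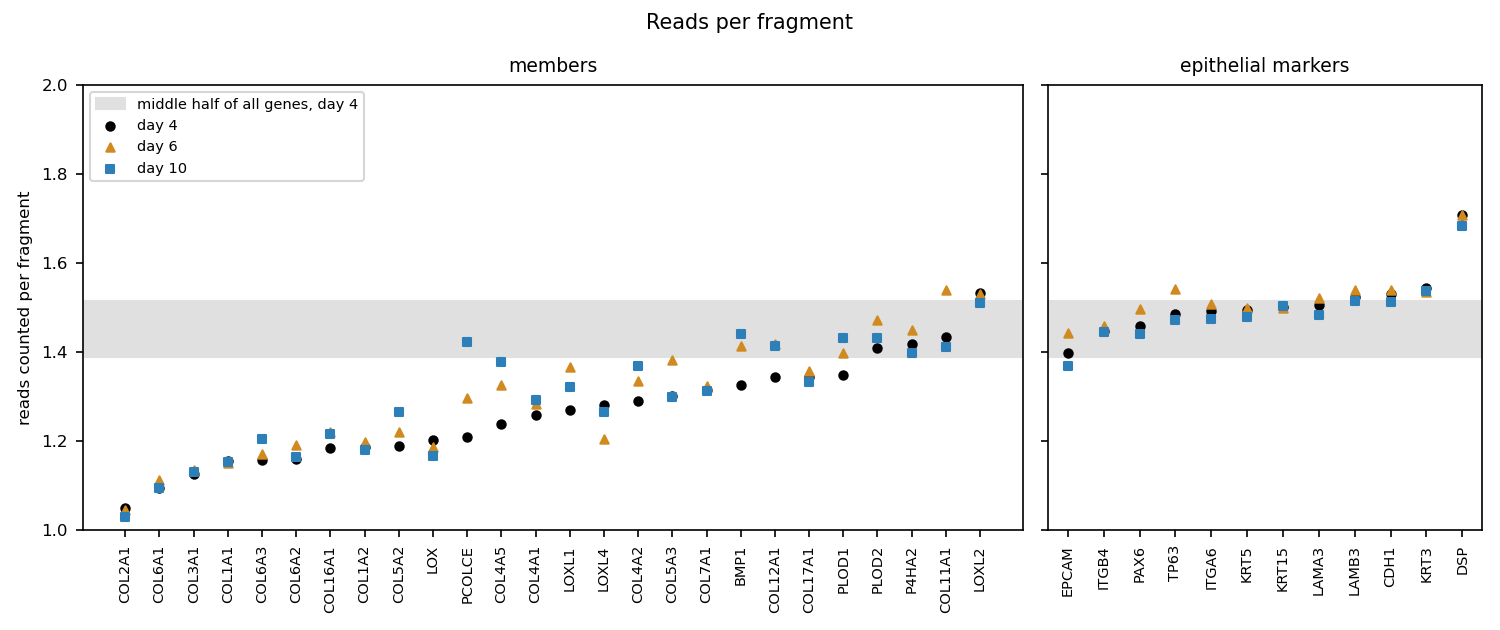
Reads counted per fragment for the 26 members with more than 100 fragments in each library, ordered by the day 4 value, and for 12 epithelial markers; the grey band spans the quartiles of 7308 genes on day 4 (1.39 to 1.51). COL2A1 to COL5A2 lie well under the band, COL7A1 and COL17A1 nearer to it, and the epithelial markers in or near it or, for DSP, above it.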

How the data were processed

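Per the labels' protocols, total RNA was taken with Trizol and sequenced from Illumina TruSeq RNA libraries, 1 per stage. Per the submitters' processing notes, the build was OryCun2.0. Which aligner and counter were used, and whether strand was, is not given in the sources used here; without it, reads of an antisense or overlapping gene may be included. The authors' deposited fragment and read columns hold expected counts, fractional where coding sequences share reads. The deposited TPM values are scaled by the authors for length and depth. The deposited FPKM and RPKM values, and the coverage signal headed raw transcript count, served only for the coding length (reads times 75 over that signal) or not at all.

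Fragments were summed per gene name, rounded and scaled with TMM factors of 1.071, 0.958 and 0.974 (edgeR 4.0.16, R 4.3.3), and genes with at least 1 CPM in 1 library were kept. With 1 library per stage there is no test. The design assumed whole counts, hence the rounding. The calculation was tested on simulated data. Alternatives were other scalings (none, DESeq2 1.42.0, TPM), pseudocounts, minimum levels and thresholds, the top coding sequence and read counts. Members and lists were chosen with earlier results of these data known. Members with at least 10 CPM in any library are described by level, others in ranges. Of each other list at most 4 genes in each direction were named, among those that passed 2-fold and reached 10 CPM, so not all such genes are; P4HA1, DDR1, ITGA11, ITGB1, ACTA2, LAPTM5, VIM and TNC and the line for reads per fragment were chosen after their values were seen. A melanocyte and nerve sheath marker list is not reported in full here. Names and neighbours come from the RefSeq table of mOryCun1.1, whose coordinates are not used.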

Additional observations from a re-analysis of the deposited data

How the results depend on the processing

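No paired analysis was possible because each stage has 1 library and the labels give no replicate numbers. Over 837 values of the 31 members with at least 10 CPM, each set against 1 alternative, 814 stayed on their side of the 2-fold threshold, 16 newly passed it, 7 no longer did and 0 that had passed changed direction. Alternatives that changed only the minimum level leave the difference of such a gene as it was. Their values are among the 814 and could not move, so that count overstates the stability. The median of all genes moved to -0.14 (day 6 against day 4) and -0.11 (day 10 against day 4) without TMM factors, and to -0.30 and -0.31 with TPM. No library could be left out, since each stage has only 1. Without TMM factors 13 members fell by day 6 (9.49% of all genes), and the member medians were -0.76 (day 6 against day 4) and -1.14 (day 10 against day 4). With TPM 13 of 34 fell by day 6 (13.2% of all genes) with a median of -0.72. With a pseudocount of 5, 5 fell by day 6 (3.52% of all genes), and the medians were -0.49 and -0.67 for days 6 and 10 against day 4. With no filter the medians were -0.23 (day 6 against day 4), 0 (day 10 against day 6) and -0.063 (day 10 against day 4), since genes at 0 were included. With at least 5 CPM, 5 of 32 fell by day 6 (6.95% of all genes). The medians were -0.48 (day 6 against day 4) and -0.41 (day 10 against day 6). Read counts gave a median of -0.12 for day 10 against day 6. At 1.5-fold, 2 rose and 18 fell by day 6 (19.6% and 18.02% of all genes), and 9 rose and 13 fell from day 6 to day 10 (19.1% and 19.2%). At 4-fold, 0 fell by day 6 (0.671% of all genes), 1 rose and 0 fell from day 6 to day 10 (1.68% and 0.2496%), and 1 rose and 5 fell from day 4 to day 10 (4.70% and 3.09%). Apart from these constructions, the cause was not tested. Depth limits the 5 members under 10 CPM, whose intervals are wide.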

Other observations

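Some genes of the pathway are filed under a LOC number in the tables and carry a known symbol in the RefSeq table of mOryCun1.1. They are outside the rule for members. LOC103347362, with the symbol COL18A1, a basement membrane collagen, was at 8.99, 15.8 and 22.5 CPM on days 4, 6 and 10, and rose 2.5-fold [1.97 to 3.2]. COL15A1, the other multiplexin, rose over the same interval. LOC103345704, with the symbol PLOD3, the lysyl hydroxylase that also adds sugars to collagen, was at 17.6, 10.1 and 7.53 CPM and fell 2.34-fold [1.79 to 3.07], while PLOD2 rose. LOC100009353, with the symbol SERPINH1, the collagen chaperone HSP47, was at 172, 175 and 86.9 CPM. It fell 2.01-fold [1.86 to 2.18] after day 6, while its day 10 minus day 4 difference of -0.98 did not pass. It had 1.46 reads per fragment on day 4, against a median of 1.45 over all genes with enough fragments. The implied coding length was 798 bases for the COL18A1 entry, 689 for PLOD3 and 646 for SERPINH1. For COL15A1 and PLOD2 it was 4004 and 2257. Whether the LOC entries cover whole genes was not tested, so their levels are not comparable with those of other genes.

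Reads per fragment also differed between libraries for genes that are no members. VIM had 1.25, 1.15 and 1.09 on days 4, 6 and 10, as its level went from 1527 to 581 CPM. THY1 had 1.22, 1.39 and 1.48, as its level went from 19.6 to 77 CPM.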
